A study of Drosophila melanogaster with 4 samples.

Results

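The 37 genes of the mitochondrial genome were examined in ovaries of control flies and of flies with a mutant allele of wuho. They were taken by name, as every row whose gene name begins with mt:, from a table of 17475 genes, and comprise 13 protein-coding, 2 ribosomal RNA (rRNA) and 22 transfer RNA (tRNA) genes. RNA was sequenced from ovaries of Drosophila melanogaster aged 7 days and cultured at 25 °C, in 2 libraries from w1118, a white-eyed laboratory strain labelled wild type, and 2 from flies of the same background that bear wh7, a mutant allele of wuho. The values are FPKM, read fragments scaled by transcript length and library total. The scaling by length is meant to let genes be compared. For short or overlapping genes such a comparison depends on the lengths used and on how reads were divided. The labels do not say whether the 2 libraries of a genotype came from separate flies. The p-values thus measure the spread between these libraries, shared in part across genes, and that spread may be technical. The description fields name another experiment, an RNAi against tkv, and were set aside after both genes were looked up.

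In the libraries labelled control 1, control 2, wh7 1 and wh7 2, wuho stood at 24.7, 25.4, 0.832 and 0.646 FPKM, a level of 2.95% of control (limma adjusted p = 0.00245), and tkv at 48.0, 49.5, 57.0 and 55.7 FPKM (limma adjusted p = 0.0898). FPKM summed to between 682413 and 757801 per library. The germline transcript osk, which marks ovary tissue, was at 584, 592, 503 and 618 FPKM. Of 8580 genes that reached 1 FPKM in 2 or more libraries, 3403 passed an adjusted p of 0.05, which is 39.7% of them. Of the calls 53.5% were higher in wh7, against 71.3% with median ratio scaling, under which the median change of all genes shifted by 0.10 on the log2 scale. Markers of muscle, hemocytes, fat body, follicle cells and the germline were also looked up, and their summed FPKM is given here. The 10 muscle markers were at 55.5, 70.8, 813 and 1392 FPKM (10 of 10 rose), the 7 hemocyte markers at 24.9, 40.9, 169 and 202 (3 of 4 tested rose) and the 5 fat body markers at 7.21, 8.23, 62.1 and 57.6 (3 of 3 tested rose). The hemocyte genes NimC1 and He and the fat body gene Fbp1 were listed at 0 in both controls, and no muscle marker was. The 7 follicle cell markers were at 920, 2402, 2846 and 3545 FPKM (3 of 6 tested rose) and the 8 germline markers at 1514, 1526, 1286 and 1368 (1 rose and 2 fell). Most of the follicle cell sum came from yolk protein genes that were not called, with Yp2 alone at 558, 1418, 1729 and 2191 FPKM. The follicle cell genes that rose, Fas3, eya and ct, made up little of that sum. The part of these cell types in the mitochondrial results was not tested, and in whole ovaries fewer cells of a type and less RNA per cell cannot be told apart.

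The mitochondrial genome is a small circle, present in many copies per cell and inherited through the egg, that encodes core subunits of respiratory complexes I, III and IV and of the ATP synthase, complex V. Its genes lie close together on both strands and are transcribed as long precursors. These are cut where tRNAs lie between the other genes, by RNase P at the 5′ end and RNase Z at the 3′ end of a tRNA, so genes copied together can still differ in level through cutting, polyadenylation and decay. The rRNAs form the mitochondrial ribosome, and the nuclear genome supplies every other subunit of the complexes and the enzymes that copy, transcribe and cut.

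Mitochondrial transcripts were among the most abundant RNAs of the ovary. The genome's genes held 7.88% and 8.32% of summed FPKM in the controls and 4.89% and 5.85% in wh7. Every wh7 library was below both controls, and the mutant mean was 0.663 of the control mean (exact two-sided permutation p = 0.333, the smallest that 2 libraries against 2 allow). The rRNA genes made up most of this gap, with 4.16% and 4.03% in the controls against 1.81% and 2.11% in wh7. The protein-coding genes held 3.68% and 4.24% in the controls and 3.06% and 3.69% in wh7. These ranges overlapped, and the ratio of means was 0.852 (propagated SD 0.142, exact two-sided permutation p = 0.667). Among the 20 genes of highest FPKM, mitochondrial genes numbered 5, 5, 3 and 4.

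The members fell into 3 very different classes of measurement. All 13 protein-coding and both rRNA genes passed the filter of 1 FPKM in 2 or more libraries, as did 1 of 22 tRNA genes. In the test across all genes, limma on log2(FPKM + 1) with Benjamini-Hochberg adjustment, 1 of these 16 members was lower in wh7 and 0 were higher, beside 18.4% of all tested genes lower and 21.2% higher. At an unadjusted p under 0.05 there were 2. The control and wh7 libraries did not overlap in 4 of the 16 (mt:ATPase6, mt:ATPase8, mt:lrRNA and mt:tRNA:Y, each lower in wh7), beside 77.0% of all tested genes in either direction and 41.3% lower in wh7. Calls and separated groups were thus less frequent among the members than among all tested genes. The median SE of the 16 members was larger, at 0.24 beside 0.13 over all tested genes. The median log2 change of the 13 mRNAs was -0.23, beside -0.04 over all tested genes, with a range from -0.70 to 0.22. In 12 of 13 the wh7 mean was below the control mean. On the log2 scale 11 of 13 changes were negative, beside 4581 of 8580 over all tested genes. Most of these mRNAs also moved together between libraries of a genotype, so they are not 13 separate observations.

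**Figure D1:**
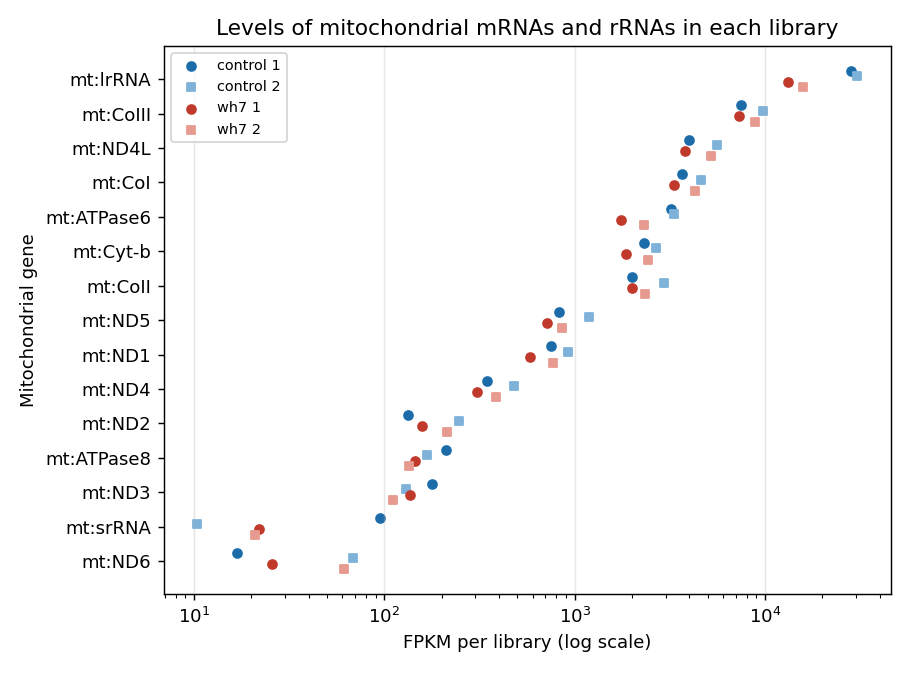
FPKM (log axis) of the 13 protein-coding and 2 rRNA genes of the mitochondrial genome in each of the 4 libraries, 1 point per library. The large rRNA lies above every mRNA in each library, at 28267 and 30529 FPKM in control and 13114.5 and 15884 in wh7, and mt:ND6 and mt:srRNA spread widely within a genotype.

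The mRNAs spanned a wide range of levels on the FPKM scale. Ordered by control mean they ran mt:CoIII (8645 FPKM), mt:ND4L (4785), mt:CoI (4128), mt:ATPase6 (3256), mt:Cyt-b (2495), mt:CoII (2475), mt:ND5 (1008), mt:ND1 (837), mt:ND4 (412), mt:ND2 (190.2), mt:ATPase8 (189), mt:ND3 (154) and mt:ND6 (42.7). The control libraries of neighbours in this order overlapped for mt:ND4L and mt:CoI, mt:Cyt-b and mt:CoII, mt:ND5 and mt:ND1, mt:ND2 and mt:ATPase8, and mt:ATPase8 and mt:ND3. Compared within each library, mt:ND4L was nevertheless above mt:CoI in 4 of 4 libraries and mt:ND5 above mt:ND1 in 4 of 4. The 9 mRNAs of the plus strand held 76.4%, 74.6%, 75.6% and 74.2% of mitochondrial mRNA FPKM, and the 4 of the minus strand the rest, and the groups overlapped. The median log2 change was -0.16 for the plus strand and -0.28 for the minus strand, with 1 of 9 and 0 of 4 called.

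The call among the members was in complex V, the ATP synthase, whose membrane subunits a and 8 are encoded by mt:ATPase6 and mt:ATPase8. mt:ATPase6 (FBgn0013672) stood at 3197 FPKM in control 1, 3316 in control 2, 1758 in wh7 1 and 2296 in wh7 2. Both mutant libraries were below both controls, and the control mean was 1.61 times the mutant mean. The log2 change was -0.70 (SE 0.19, limma adjusted p = 0.0430). This call depended on having all 4 libraries: leaving out control 1 gave an adjusted p of 0.0967, leaving out control 2 gave 0.0749, leaving out wh7 1 gave 0.230 and leaving out wh7 2 gave 0.0935, with the change between -0.89 and -0.50.

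mt:ATPase8, which lies directly before mt:ATPase6 and shares 7 annotated bases with it, was at 211, 167, 145 and 134 FPKM. The groups again did not overlap, with a log2 change of -0.42 (SE 0.13, limma adjusted p = 0.0590), which misses the threshold. Within complex V the FPKM of mt:ATPase6 was 15.2, 19.8, 12.1 and 17.1 times that of mt:ATPase8, with overlapping groups. mt:ATPase8 has 162 annotated bases and mt:ATPase6 has 675. The ratio therefore depends on how lengths were set and reads divided, which the labels do not state. Complex V as a whole held 13.6% and 10.8% of mitochondrial mRNA FPKM in the controls and 8.60% and 8.74% in wh7. Both wh7 libraries were lower than both controls (exact two-sided permutation p = 0.333, the smallest possible). Nearly all of this share was mt:ATPase6, with 12.7% and 10.3% in the controls and 7.94% and 8.25% in wh7. The share of mt:ATPase8 was 0.839% and 0.521% against 0.655% and 0.483%, with overlapping groups. The share of complex V is thus not a result separate from mt:ATPase6.

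mt:CoIII encodes a core subunit of cytochrome c oxidase, complex IV, and is the gene directly after mt:ATPase6, with which it shares 1 annotated base. The deposited table merges mt:ATPase8, mt:ATPase6 and mt:CoIII in 1 locus, at bases 3907 to 5524 of the mitochondrial genome. mt:CoIII was at 7507, 9784, 7292 and 8812 FPKM, so the groups overlapped, with a log2 change of -0.10 (SE 0.29, limma adjusted p = 0.811). The ratio of mt:CoIII to mt:ATPase6, taken within each library, was 2.35 and 2.95 in the controls and 4.15 and 3.84 in wh7, a mean 1.51 times as high in the mutant (exact two-sided permutation p = 0.333). The ratio of these neighbours on 1 strand was thus higher in each wh7 library than in each control. Its denominator is mt:ATPase6, the called member, so this ratio is not a separate result. Reads from the bases that such genes share cannot be assigned to one of them, and the labels do not state how reads in a merged locus were divided.

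The other complex IV subunits, mt:CoI with the catalytic centre and mt:CoII with the site that accepts electrons from cytochrome c, did not separate the genotypes. mt:CoI was at 3639, 4616, 3331 and 4255 FPKM (log2 change -0.12, limma adjusted p = 0.700). mt:CoII was at 1994, 2956, 2008 and 2345 FPKM (log2 change -0.16, limma adjusted p = 0.617). In both the second library of a genotype was above the first. Complex IV held 52.3% and 54.0% of mitochondrial mRNA FPKM in the controls and 57.1% and 55.4% in wh7, higher in each mutant library than in each control (exact two-sided permutation p = 0.333). As a share of 1 total this rises where complex V falls, so the shares are not separate results. Complex III has 1 mitochondrial subunit, cytochrome b, and mt:Cyt-b was at 2314, 2677, 1867 and 2419 FPKM (log2 change -0.23, limma adjusted p = 0.382), again with overlap.

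Complex I, the NADH dehydrogenase, takes 7 of its subunits from the mitochondrial genome, all in its membrane arm. None of the 7 was called in either direction, none had groups that did not overlap, and their median log2 change was -0.24 (lowest adjusted p 0.221). mt:ND1 was at 751, 922, 578 and 766 FPKM, with a log2 change of -0.32 (limma adjusted p = 0.221). mt:ND5 was at 829, 1188, 714 and 856 FPKM, with a log2 change of -0.34 (limma adjusted p = 0.243). In both genes control 2 was the highest library and wh7 1 the lowest.

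mt:ND4 and mt:ND4L adjoin each other on the minus strand, share 1 annotated base and form 1 deposited locus at bases 8206 to 9834. mt:ND4 was at 345, 478, 306 and 383 FPKM (log2 change -0.24, limma adjusted p = 0.366). mt:ND4L was at 3992, 5579, 3813 and 5166 FPKM (log2 change -0.09, limma adjusted p = 0.820). Although they are neighbours, mt:ND4L stood at 11.6, 11.7, 12.4 and 13.5 times the level of mt:ND4, a ratio far from 1 that was higher in both mutant libraries (exact two-sided permutation p = 0.333). With the 291 annotated bases of mt:ND4L and the 1339 of mt:ND4, a value scaled by length depends on how the length of a short gene was set, which the labels do not state.

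The 3 scarcer complex I mRNAs also overlapped between the genotypes. mt:ND2 was at 134, 247, 158 and 212 FPKM (log2 change 0.01, limma adjusted p = 0.978) and mt:ND3 at 179, 130, 137 and 111 FPKM (log2 change -0.31, limma adjusted p = 0.249). mt:ND6, the least abundant mRNA, was at 16.8, 68.6, 25.7 and 61.6 FPKM. The first library of each genotype was low and the second high, and its log2 change of 0.22 had an SE of 0.76 (limma adjusted p = 0.839). From the value of 1 read in low genes, these mt:ND6 levels rest on about 180, 710, 278 and 643 reads, so counting error is small beside the spread.

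**Figure D2:**
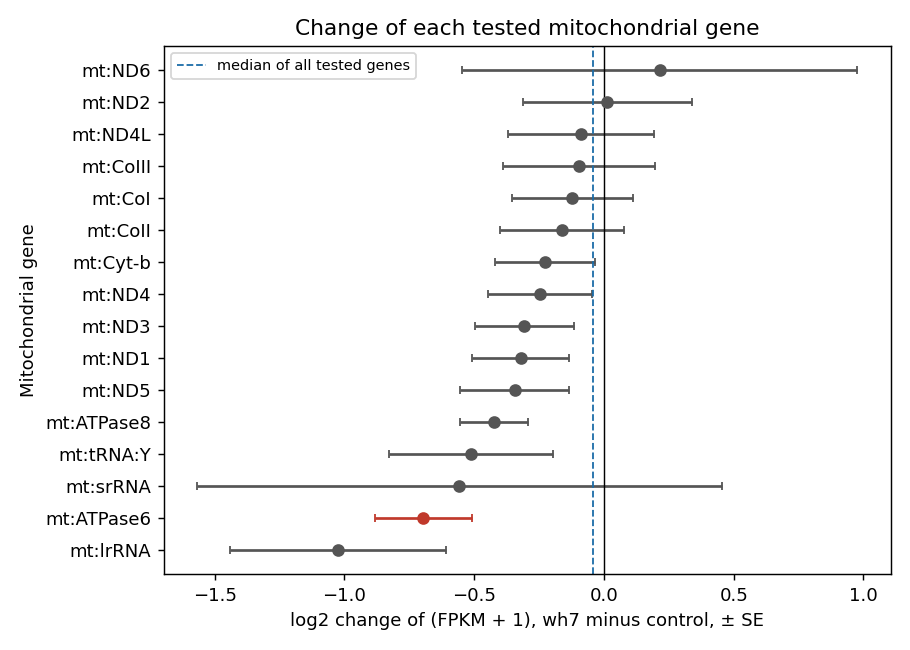
Log2 change of (FPKM + 1), wh7 minus control, for the 16 members that passed the filter, with bars of 1 standard error from limma and the dashed line at the median of all 8580 tested genes (-0.04). mt:ATPase6 at -0.70 passed the adjusted p of 0.05, and mt:ND6 and mt:srRNA have the widest bars.

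The large rRNA, mt:lrRNA (FBgn0013686), the RNA of the large ribosomal subunit, was the gene of highest FPKM in all 4 libraries. Control 1 held 28267, control 2 30529, wh7 1 13114.5 and wh7 2 15884 FPKM. The mutant libraries were each below both controls, at 49.3% of control on average. The log2 change was -1.03 (SE 0.42, limma adjusted p = 0.110), which misses the threshold, although the change is larger than that of mt:ATPase6. The second library over the first was 1.08 in control and 1.21 in wh7, beside 1.04 and 1.31 for mt:ATPase6. The SE of mt:lrRNA, though larger, also draws on a trend of variance with level over all genes. Without that trend mt:lrRNA had a limma adjusted p of 0.0128. Without control 1 its adjusted p was 0.0408 and without control 2 it was 0.0338, while without wh7 1 it was 0.551 and without wh7 2 it was 0.498. Quantile normalization sets the top gene of every library to 1 value, which gives mt:lrRNA a change of 0 by construction.

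Set against mRNAs of the same libraries, mt:lrRNA was lower in wh7 in each ratio computed. It stood at 37.6 and 33.1 times mt:ND1, the nearest mRNA on its strand, in the controls and at 22.7 and 20.7 times in wh7. Its ratio to mt:CoI was 7.77 and 6.61 in the controls and 3.94 and 3.73 in wh7, and that to mt:CoIII 3.77 and 3.12 against 1.80 and 1.80. Each ratio separated the genotypes with an exact two-sided permutation p of 0.333, the smallest possible. The gap in mt:lrRNA was therefore present within the mitochondrial RNA as well as in its share of all FPKM.

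The small rRNA, mt:srRNA, did not follow the large one. Control 1 held 95.1 FPKM and control 2 10.3, while wh7 1 held 21.9 and wh7 2 21.0. The controls lay on either side of both mutant libraries, and the log2 change of -0.56 had an SE of 1.01 (limma adjusted p = 0.685). Its direction was set by which control was used: it was 0.98 (limma adjusted p = 0.0423) without control 1 and -2.10 (limma adjusted p = 0.00747) without control 2. mt:lrRNA stood at 297, 2956, 600.1 and 757 times mt:srRNA, though both are transcribed from the minus strand. Their loci adjoin in the deposited table, at bases 12734 to 14130 and 14131 to 14916. The locus of mt:lrRNA there is merged with that of mt:tRNA:V. About 1530, 160, 354 and 328 reads underlie the mt:srRNA values. How the making of the libraries bears on the measured levels of both rRNAs was not tested. In the authors' deposited table mt:srRNA is the 1 member of 37 marked significant (q = 8.70e-04), and 0 of 13 mRNAs were marked there, beside 1660 of all 17475 genes. The pooled control value of mt:lrRNA was listed there at 0.0001, which stands for 0, although both control libraries were high. That mt:lrRNA was not marked there therefore says nothing about its change.

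The tRNA genes were close to unmeasured. Their annotated lengths are 62 to 72 bases, below the read length of 75 bases, and 17 of the 22 were listed at 0 in every library. mt:tRNA:C (106 FPKM) and mt:tRNA:R (93.0 FPKM) were above 0 in control 2 alone, and mt:tRNA:D (76.8 FPKM) and mt:tRNA:I (86.5 FPKM) in wh7 2 alone. In all, 8 of 88 tRNA values were above 0, and the lowest of them was 76.8 FPKM, so a value is either 0 or large. A listing at 0 here does not show that a tRNA was absent.

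mt:tRNA:Y, which lies on the minus strand at bases 1403 to 1468 just before mt:CoI on the plus strand, was the tRNA that passed the filter. It was at 318, 165, 157 and 163 FPKM, with control 1 high and the other 3 libraries close together. The groups did not overlap, yet the log2 change of -0.51 (limma adjusted p = 0.248) came from control 1: it was -0.04 (limma adjusted p = 0.824) without that library, and -0.99 (limma adjusted p = 0.0143) without control 2. After the libraries were set to 1 common value per read, the 4 values were 2, 1, 1 and 1 times the same step. Control 1 thus stood 1 step above the other 3 libraries, and how many reads make a step is not known.

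Libraries of the same genotype differed more for mitochondrial mRNAs than for most genes. In 11 of 13 mRNAs control 2 was above control 1, and in 11 of 13 wh7 2 was above wh7 1. mt:ATPase8 and mt:ND3 went the other way in both genotypes. The median log2 difference of the 13 was 0.38 between the controls and 0.35 between the wh7 libraries. The median absolute difference was 0.45 and 0.35 for these mRNAs, beside 0.13 and 0.15 for all tested genes. Of the marker sums above, those of follicle cells, muscle, hemocytes and the germline were also higher in the second library of both genotypes. Single genes did not all follow their sum. Among hemocyte markers, crq fell from control 1 to control 2 (14.3 to 6.71 FPKM) while srp rose (9.65 to 32.5). From wh7 1 to wh7 2, crq and srp fell while Pxn rose (31.0 to 75.6). The germline sum differed little between the controls, and vas was lower in control 2 (187 and 172). The part of these markers in the mitochondrial differences was not tested.

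**Figure D3:**
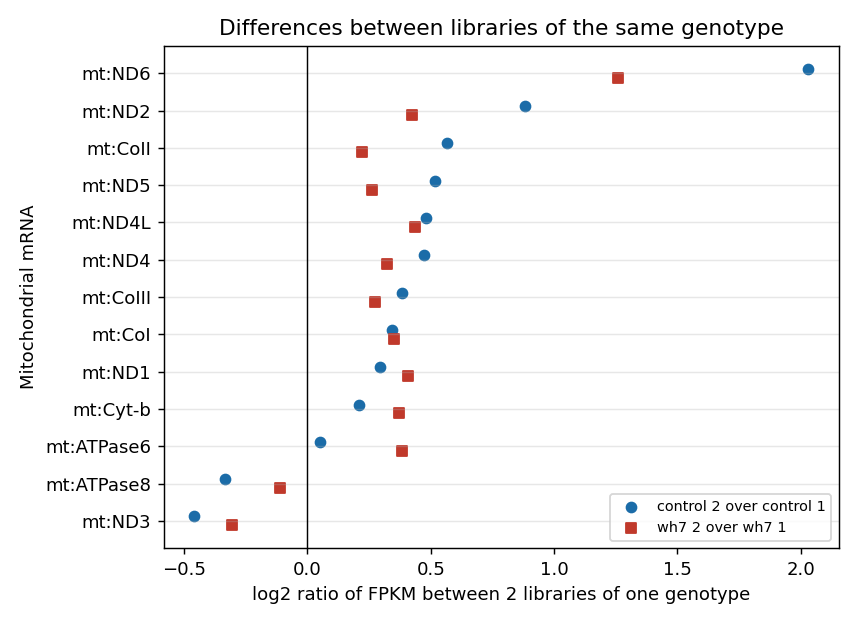
Log2 ratio of FPKM between the 2 libraries of a genotype for the 13 mitochondrial mRNAs, circles for control 2 over control 1 and squares for wh7 2 over wh7 1, ordered by the control ratio. In 11 of 13 both ratios lie above 0, and mt:ATPase8 and mt:ND3 lie below 0 in both.

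The respiratory complexes join mitochondrial and nuclear subunits, so the levels of both were set side by side per complex, as the mean FPKM of the mitochondrial subunits over the mean of the nuclear ones. For complex V, with 2 mitochondrial and 13 nuclear genes, the ratio was 3.66 and 3.34 in the controls and 2.04 and 2.44 in wh7. The genotypes did not overlap, with a mutant mean at 0.639 of control (exact two-sided permutation p = 0.333, the smallest possible). The mitochondrial mean of complex V is mostly mt:ATPase6, the called member, so this ratio is not a separate result. For complex IV, with 9 nuclear genes, it was 15.6 and 18.6 against 12.98 and 15.1, and for complex III, also with 9, 13.4 and 13.7 against 10.3 and 12.7. Both were lower in each wh7 library than in each control (exact two-sided permutation p = 0.333). The mitochondrial means alone overlapped between the genotypes for both complexes. The nuclear mean of complex IV was higher in wh7, at 280 and 312 FPKM in the controls against 325 and 341. For complex I, with 33 nuclear genes, it was 8.63 and 10.4 against 6.95 and 8.67, and the groups overlapped (exact two-sided permutation p = 0.667).

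**Figure D4:**
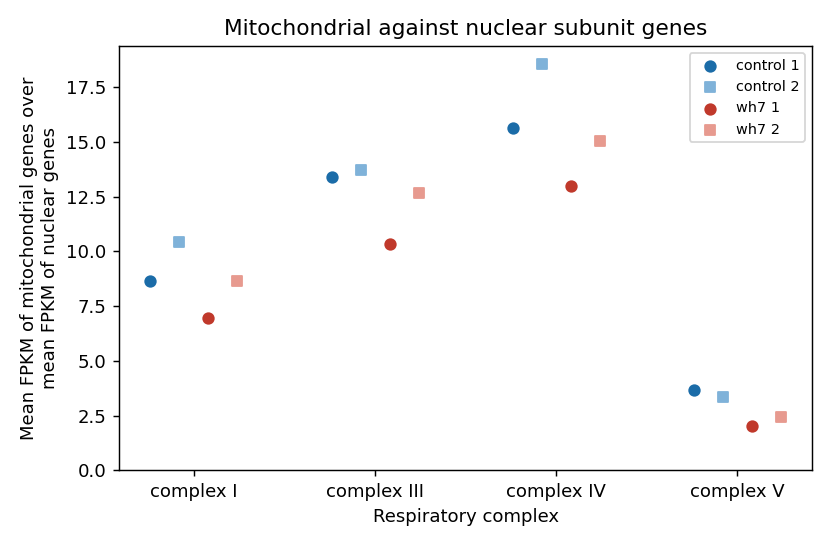
Mean FPKM of the mitochondrial subunits over mean FPKM of the nuclear subunits for complexes I, III, IV and V in each library. For complex V, where the mitochondrial mean is mostly mt:ATPase6, both wh7 libraries (2.04 and 2.44) lie below both controls (3.66 and 3.34). For complex I the genotypes overlap.

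Few nuclear subunits of the complexes were called. Of 70 listed subunits of complexes I to V, 68 were tested. In wh7 4 rose and 0 fell, beside 21.2% of all tested genes higher and 18.4% lower. Of the 68 changes 18 were negative, beside 4581 of 8580 over all tested genes. The median log2 change of the subunits was 0.07, beside -0.04 over all tested genes. After scaling on nuclear genes these medians were -0.0064 and -0.12. No test compared nuclear with mitochondrial subunits as groups. In complex I, ND-13B (CG6463) rose from 77.9 and 93.4 FPKM to 122 and 124.6 (limma adjusted p = 0.0237). In complex II, which has no mitochondrial subunit, SdhC, a membrane anchor, rose from 63.3 and 67.6 to 89.3 and 89.3 FPKM (limma adjusted p = 0.0162). In complex IV, cype, the fly subunit VIc, rose from 139 and 152 to 192 and 197 FPKM (limma adjusted p = 0.0206), and COX7A (CG9603) from 326 and 333 to 400 and 410 FPKM (limma adjusted p = 0.0365). None of the 9 nuclear subunits of complex III or of the 13 of complex V was called. Among the most abundant of these, the catalytic ATPsynbeta was at 540, 676, 579 and 686 FPKM and the ring subunit ATPsynC (CG1746) at 2067, 2239, 1815 and 2001 FPKM. In complex III, the core protein UQCR-C1 (CG3731) was at 270, 309, 266 and 288 FPKM and UQCR-Q (CG7580) at 417, 458, 445 and 418 FPKM. The share of calls, 4 of 68, was below that of all genes, and 10 were called with median ratio scaling. Leaving out 1 library left 1 call without control 1, 2 without control 2 (1 rise and 1 fall), 3 without wh7 1 and 0 without wh7 2.

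Of 11 tested genes that copy and transcribe the mitochondrial genome, each tested singly, 0 rose and 3 fell, beside 18.4% of all tested genes lower and 39.7% called in either direction, and their median log2 change was -0.22. mtDNA-helicase, which unwinds the mitochondrial DNA for replication, fell from 29.99 and 28.3 to 19.9 and 20.1 FPKM (limma adjusted p = 0.0200). PolG1 (tam), the catalytic subunit of its polymerase, fell from 18.3 and 17.7 to 12.6 and 13.8 FPKM (limma adjusted p = 0.0471). mtSSB, which coats single-stranded mitochondrial DNA, fell from 223 and 232 to 192 and 191 FPKM (limma adjusted p = 0.0495). The RNA polymerase PolrMT was at 19.9, 17.9, 13.1 and 15.7 FPKM and the packaging and transcription factor TFAM at 132, 137, 110 and 121 FPKM; neither was called. The calls of PolG1 and mtSSB were lost without any 1 library, and that of mtDNA-helicase without any 1 except wh7 1 (adjusted p from 0.0409 to 0.123).

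Of 9 tested genes of mitochondrial RNA processing and decay, 1 rose and 2 fell, beside 39.7% of all tested genes called, a share near that of this list. RNaseZ (JhI-1), which cuts the 3′ ends of tRNAs in nucleus and mitochondria, rose from 10.2 and 12.04 to 16.999 and 27.8 FPKM (limma adjusted p = 0.0477). mldr (CG15896), a subunit of the mitochondrial RNase P, fell from 10.7 and 12.8 to 6.63 and 6.37 FPKM, which is 55.3% of control (limma adjusted p = 0.0221). Its partner subunits rswl (33.5, 33.8, 24.8 and 29.9 FPKM) and scu (153, 162, 153 and 136 FPKM) were not called. MTPAP (CG11418), the mitochondrial poly(A) polymerase, fell from 23.3 and 25.5 to 17.1 and 18.2 FPKM (limma adjusted p = 0.0369). mldr lies on chromosome X at 6291303 to 6294343 in the deposited BDGP6 coordinates, and its locus begins 57 bases after the deposited locus of wuho on the same strand ends. Top3beta, a topoisomerase gene on the other side of wuho and on the other strand, was at 43.7 and 44.99 FPKM in control and 8.79 and 9.01 FPKM in wh7, which is 20.1% of control. Whether the wh7 lesion itself bears on either neighbour was not tested. Leaving out 1 library ended the call of mldr for all but wh7 1 (adjusted p from 0.0425 to 0.0914), that of RNaseZ for all but wh7 1 (0.00914 to 0.172) and that of MTPAP in each case (0.0790 to 0.151).

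**Figure D5:**
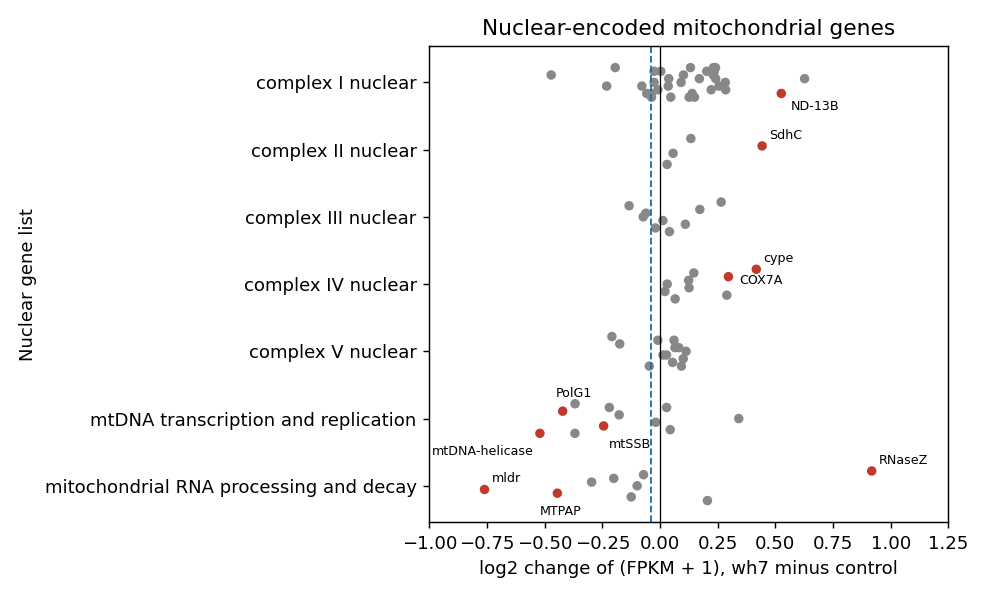
Log2 change of (FPKM + 1), wh7 minus control, for tested nuclear genes of the 5 complexes, of mitochondrial DNA transcription and replication, and of mitochondrial RNA processing and decay, 1 point per gene, with called genes named and in red. The dashed line is the median of all tested genes (-0.04), and RNaseZ on the right and mldr on the left are the called genes farthest from it.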

How the data were processed

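The authors deposited FPKM per gene and library, per the file headers, with 0.0001 in place of 0. Libraries were made with a strand-specific Agilent kit and read as single ends of 75 bases, per the labels' protocols. Bowtie 0.12.2 and bcl2fastq 2.0, with the builds BDGP6 and mm8, are named per the submitters' processing notes; the tool that made the FPKM and its use of strand are not stated there. The authors also deposited pooled values, ratios, log2 ratios, p-values and q-values, per the file headers. The end of the mt:srRNA paragraph draws on them. The 4 per-library columns were used otherwise, and 0 were left out.

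Genes reaching 1 FPKM in 2 or more libraries were tested with limma 3.58.1 (R 4.3.3) with a mean-variance trend on log2(FPKM + 1), a scale that understates changes of low genes; fold changes are ratios of mean FPKM. The prior degrees of freedom were 2.69. The fit was tested on simulated data. Values of genes below 0.1 FPKM fell on whole-read ratios to control 1 for 79.2%, 79.6% and 78.8% of 669, 358 and 340 genes in control 2, wh7 1 and wh7 2 (tolerance 0.001 log2), too few for a count test; 1 FPKM in 1 kb is about 19.7 to 20.6 reads. Read estimates rest on this and cover counting error only.

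Every mt: gene was accounted for. Of each nuclear list up to 3 called genes with the largest change were named, or the 2 most abundant where none was called; PolrMT, TFAM, rswl, scu, Top3beta and osk were named after their values were seen. The members and the 12 lists (130 symbols, 4 unmatched) were chosen with earlier results of these data known. Deposited loci, to whose starts 1 was added, equalled the BDGP6.54 annotation for 12 of 37 members; strands, gene lengths and overlaps come from that annotation. Alternatives were other pseudocounts, filters, scalings and variance models, a replicate block and leaving out each library.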

Additional observations from a re-analysis of the deposited data

How the results depend on the processing

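Another 14 settings were tried, of which the crossed block was chosen after seeing the data. Members called numbered 0 with no filter, 2 with a filter of 5 FPKM, 0 with median ratio scaling, 2 with scaling on nuclear genes, 2 without the variance trend and from 0 to 4 with 1 library left out, against 1. The genes called were 3403 in all and from 764 (without control 1) to 2363 with 1 library left out, where the lone library is assumed to vary like the others. Nuclear subunits called, 4 in the report, numbered 7 with quantile normalization, 10 with median ratio scaling and 0 to 3 with 1 library left out. The 3 called genes of mitochondrial DNA transcription and replication became 1 with no filter, 1 with median ratio scaling and 0 to 1 with 1 library left out. The 3 of RNA processing became 0 with no filter, 1 with quantile normalization and 0 to 3 with 1 library left out.

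mt:ATPase6 was called in 7 of 14 settings (adjusted p 0.00902 to 0.230) and lower in 14 of 14. mt:lrRNA was called in 5 of 14. The ratio of the mRNA share, 0.852, lay between 0.772 and 0.940. Signs turned with median ratio scaling for mt:CoIII (0.010), mt:ND4L (0.018), UQCR-C1 (0.045) and UQCR-Q (0.086), with quantile normalization for UQCR-Q (0.0096), and with scaling on nuclear genes for mt:ND2 (-0.066) and ATPsynbeta (-0.020). With 1 library left out the log2 changes ranged from -0.30 to 0.054 for mt:CoI, -0.45 to 0.12 for mt:CoII, -0.29 to 0.095 for mt:CoIII, -0.43 to 0.45 for mt:ND2, -0.33 to 0.15 for mt:ND4L, -0.77 to 1.20 for mt:ND6, -2.10 to 0.98 for mt:srRNA, -0.16 to 0.036 for UQCR-C1, -0.087 to 0.047 for UQCR-Q and -0.10 to 0.22 for ATPsynbeta. The causes were not tested.

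The labels number the libraries of both genotypes, but nothing says the numbers pair them. Deviations of same-numbered libraries correlated across all genes at Pearson -0.165 and Spearman 0.260, and across the 13 mitochondrial mRNAs at 0.919 and 0.462. With a replicate block 3624 genes were called, 4 of them members (mt:ATPase6, mt:ATPase8, mt:ND1 and mt:ND3), with 7 nuclear subunits and 1 gene of mitochondrial DNA transcription and replication. With the numbers crossed in the block these counts were 2729, 0, 3 and 1.

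Each genotype had 2 libraries. By the read estimates, which rest on annotated gene lengths, each mRNA and rRNA held about 160 reads or more in every library. What limited the calls among them was not tested. Why most tRNA values are 0 was not tested.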
